A study of Homo sapiens with 120 samples.

Results

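The 10 genes described here were selected on their FPKM values (reads corrected for the length of the transcript and the size of the library), which were lower in pancreatic cancer cells exposed to 5 nM gemcitabine than in cells given saline. They are NDUFAB1, PPA2, STUB1, CDK2AP1, MGLL, BLVRA, SMYD3, DUS1L, TMEM106C and C19orf48, each matched by name to 1 row of a table with 30504 rows and 27118 distinct names. All 10 passed the filter on low values and are among the 11416 genes fitted. Because the contrast of 5 nM with saline chose them, their values in it are a description and carry no test. The genes were not silent throughout the 5 nM arm, as 2 of its 16 rafts held 9 of them, and they were also sparse in many untreated rafts.

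The series has 120 RNA sequencing libraries of CFPAC-1, an established pancreatic ductal adenocarcinoma line. Cells were isolated on microrafts, small detachable culture elements of an array, or in the Fluidigm C1 microfluidic device, and were set beside 4 bulk libraries and blanks. The gemcitabine experiment holds 64 raft libraries in 4 arms, which were untreated, given saline, or given gemcitabine at 2 nM or 5 nM. Each arm has 8 rafts labelled proliferative and 8 labelled not proliferative. The number of cells on these rafts is labelled unknown, and no exposure time was found in the labels. The isolation experiment, with no treatment, holds 10 rafts each with 0, 1 or 2 cells and 5 C1 captures each with 0, 1 or 2 cells, and 7 water libraries serve as further blanks.

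Gemcitabine is a deoxycytidine analogue that is built into DNA, halts its synthesis and depletes deoxynucleotides by inhibiting ribonucleotide reductase. It is a standard drug for pancreatic cancer. The 10 genes belong to no single pathway. NDUFAB1 encodes the mitochondrial acyl carrier protein, which is also a subunit of respiratory complex I, and PPA2 encodes the mitochondrial inorganic pyrophosphatase. STUB1 encodes CHIP, a ubiquitin ligase that works with HSP70 and HSP90 chaperones, and CDK2AP1 encodes a protein that binds the cell cycle kinase CDK2. MGLL encodes monoacylglycerol lipase and BLVRA encodes biliverdin reductase A, the last enzyme of haem breakdown to bilirubin. SMYD3 encodes a lysine methyltransferase and DUS1L a member of the tRNA dihydrouridine synthase family. TMEM106C encodes a membrane protein, and C19orf48 is listed by RefSeq as a transcribed pseudogene, C19orf48P. The genes lie on chromosomes 16 (NDUFAB1, STUB1), 12 (CDK2AP1, TMEM106C), 3 (MGLL), 4 (PPA2), 7 (BLVRA), 19 (C19orf48), 1 (SMYD3) and 17 (DUS1L), so they do not share a single locus.

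The promoters of the genes were searched for a fixed set of short motifs. RefSeq (GRCh38.p14) gave promoters for 7 of the 10 genes, and 4 of these had a single entry. The 250 bases before the start site of those 4 are shown 5′ to 3′ on the strand of the gene, with matches to the searched motifs in capitals.
NDUFAB1, chr16:23596317-23596566, minus strand: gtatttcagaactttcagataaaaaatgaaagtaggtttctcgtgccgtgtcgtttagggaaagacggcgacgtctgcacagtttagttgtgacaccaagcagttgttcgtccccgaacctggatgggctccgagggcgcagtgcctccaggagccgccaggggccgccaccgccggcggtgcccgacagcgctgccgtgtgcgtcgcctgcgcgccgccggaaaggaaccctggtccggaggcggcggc
TMEM106C, chr12:47963346-47963595, plus strand: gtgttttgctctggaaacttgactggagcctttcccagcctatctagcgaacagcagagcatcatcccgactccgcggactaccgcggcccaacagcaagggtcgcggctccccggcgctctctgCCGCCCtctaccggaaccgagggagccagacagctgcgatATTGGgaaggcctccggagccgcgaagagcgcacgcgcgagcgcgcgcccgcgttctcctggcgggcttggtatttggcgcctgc
BLVRA, chr7:43758430-43758679, plus strand: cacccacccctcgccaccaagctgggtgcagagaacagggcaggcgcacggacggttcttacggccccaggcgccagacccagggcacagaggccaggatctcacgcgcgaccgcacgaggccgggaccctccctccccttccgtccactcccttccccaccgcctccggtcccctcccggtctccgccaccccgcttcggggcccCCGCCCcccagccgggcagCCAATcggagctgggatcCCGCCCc
DUS1L, chr17:82065805-82066054, minus strand: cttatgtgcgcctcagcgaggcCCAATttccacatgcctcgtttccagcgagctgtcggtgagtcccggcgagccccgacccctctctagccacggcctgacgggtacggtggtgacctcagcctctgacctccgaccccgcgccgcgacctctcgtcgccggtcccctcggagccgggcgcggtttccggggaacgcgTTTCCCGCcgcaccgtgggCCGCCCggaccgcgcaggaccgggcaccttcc
Both strands were searched, so a match can appear as the reverse complement, such as CCGCCC for GGGCGG or ATTGG for CCAAT. Where a gene had several entries, only the first listed was searched. The GC box GGGCGG stood in 6 of the 7 genes with a promoter, all except NDUFAB1, and in 42.6% of 35116 promoters of this length. CCAAT stood in BLVRA, TMEM106C and DUS1L, and in 32% of all promoters. The E2F-type sequence TTTCCCGC was found in DUS1L (1.39% of all promoters), and ATGGCGGC in CDK2AP1 (1.3%). The ETS-type sequence CCGGAAG (8.52%), the NRF1-type palindrome (1.03%) and TATAAA (10.7%) matched none of the 7. No motif other than GGGCGG was in more than 3 of the 7 genes, and each match is a description of letters only.

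Raft libraries varied widely. Detection means an FPKM of at least 1, and the likeness of a library to bulk was its Spearman rho with the mean bulk level across 10609 genes, with the members left out. Genes detected ran from 7 to 10424 over the 64 rafts, and 34 rafts reached a rho of 0.25. Read counts were not used here, so the depth is unknown and a value of 0 says only that a gene is listed at 0. The deposited labels name no separate cultures, so every p-value measures the spread between rafts. Index pairs in the labels repeat between arms but not within one, so the arms were treated as separate library pools, and treatment and pool cannot be told apart. Fewer cells on a raft and less RNA per cell cannot be told apart either. Of 7 ductal marker genes in the table, 6 were detected and CFTR was at 0 in all bulk and raft libraries. Their summed level was 1272 to 1834 FPKM in bulk, 911.8 to 3761 in the 8 rafts at 5 nM with rho of at least 0.25, and 596.8 to 4581 in the 11 such saline rafts. Fibroblast and endothelial markers were at or near 0 in those same 5 nM rafts (summed FPKM up to 0.32 and 0), and blood markers summed to at most 46.2. The keratinocyte list was not near 0, summing to 123.6 to 755.8 FPKM in those 5 nM rafts and 211.0 to 320.2 in bulk. Of that list KRT5 and KRT14 were at 0 in both.

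At 5 nM the genes were at 0 in most rafts and present in few. The median raft held 1 of the 10 genes, against 10 with saline, 7.5 at 2 nM and 0.5 in the untreated arm (16 rafts each). As a share of all gene and raft pairs, members were detected in 17.5% at 5 nM, 70.6% with saline, 53.1% at 2 nM and 32.5% without treatment. The same shares over all 11416 tested genes were 29.61%, 47.83%, 34.96% and 16.03%. The members were thus detected more often than the average tested gene in 3 arms and less often at 5 nM. The rule chose them to be lower at 5 nM than with saline, so the shares of both these arms follow from the choice. Among nonproliferative rafts at 5 nM, 8 of the 10 genes were at 0 in all 8 libraries, the exceptions being CDK2AP1 and TMEM106C. The levels by arm and class show both features for each gene.

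**Figure D1:**
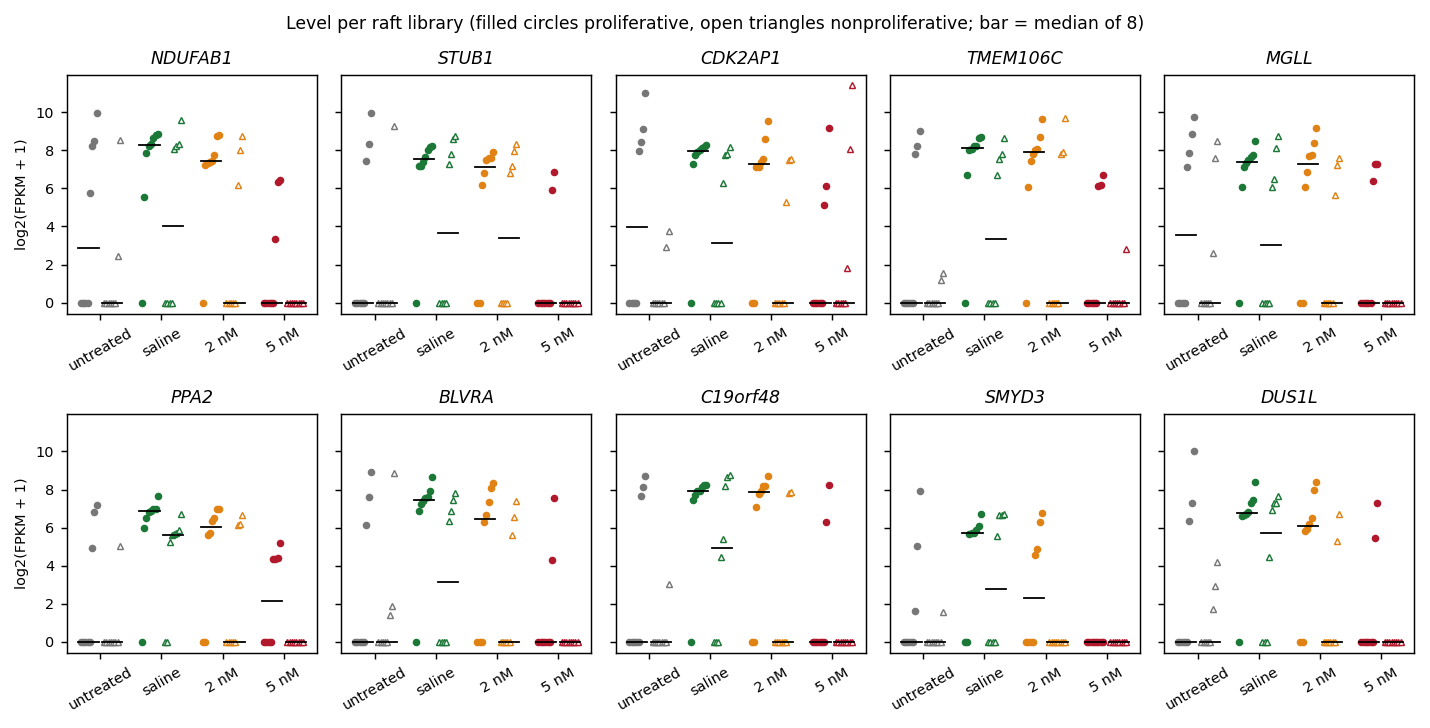
Level of each gene in the 64 rafts of the gemcitabine experiment, as log2(FPKM + 1), by arm (untreated, saline, 2 nM and 5 nM gemcitabine) and class, with 8 rafts in each group and the median as a bar. Most rafts at 5 nM sit at 0, and SMYD3 is at 0 in all 16 of them.

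The mitochondrial genes gave the following levels. NDUFAB1 was at 79.0 and 84.5 FPKM in the 5 nM proliferative rafts 2 and 4, at 9.20 in raft 1 and at 0 in the other 13 rafts of the arm. With saline its lowest, median and highest levels were 0, 309.3 and 457.8 FPKM in proliferative rafts and 0, 135.6 and 774.6 in nonproliferative rafts. All 3 nonzero NDUFAB1 values at 5 nM were therefore lower than 10 of its 11 nonzero values with saline, the exception being 45.0 FPKM in saline proliferative raft 8. PPA2 was at 20.6, 19.3, 35.1 and 19.8 FPKM in the 5 nM proliferative rafts 2, 4, 7 and 8 and at 0 elsewhere in the arm. With saline its lowest, median and highest levels were 0, 114.5 and 198.5 FPKM in proliferative rafts and 0, 48.5 and 105.5 in nonproliferative rafts. PPA2 was the gene found in most saline rafts, 13 of 16, and every PPA2 value above 0 at 5 nM lay below every such value with saline. PPA2 raft 7 comes from a library with only 334 genes detected.

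STUB1 and CDK2AP1, the ubiquitin ligase and the CDK2 binding protein, differed in how many 5 nM rafts held them. STUB1 was at 113 and 60.2 FPKM in the 5 nM proliferative rafts 2 and 4 and at 0 in the other 14. With saline its lowest, median and highest levels were 0, 183 and 297.5 FPKM in proliferative rafts and 0, 77.5 and 431.5 in nonproliferative rafts. Both nonzero STUB1 values at 5 nM were lower than the 11 nonzero values with saline. CDK2AP1 was at 33.9, 67.6 and 578 FPKM in the 5 nM proliferative rafts 2, 4 and 6, and at 2707, 2.54 and 267.9 FPKM in the nonproliferative rafts 2, 6 and 7. It was the member most often seen at 5 nM, in 6 of 16 rafts, and its value of 2707 FPKM was above all of its values in the other arms. The library with 2707 FPKM detected 1351 genes at rho 0.170 with bulk, and held no other member. With saline CDK2AP1 had lowest, median and highest levels of 0, 249 and 310.1 FPKM in proliferative rafts and 0, 38.4 and 283.5 in nonproliferative rafts.

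MGLL and BLVRA, the genes of lipid and haem breakdown, were each at 0 in all nonproliferative rafts at 5 nM. MGLL was at 152.9, 82.3 and 151.9 FPKM in the proliferative rafts 2, 4 and 6, levels inside its saline range of 66.6 to 357 FPKM in the 7 proliferative rafts that held it. BLVRA was at 190.5 and 18.8 FPKM in rafts 2 and 4, and with saline it was at 0, 177 and 405.6 FPKM (lowest, median, highest) in proliferative rafts. For both genes the difference lay in the number of rafts at 0 more than in the level where present, though BLVRA in raft 4 was below its 11 nonzero saline values.

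SMYD3 was at 0 in all 16 rafts at 5 nM and in all 8 nonproliferative rafts at 2 nM. In the 2 nM proliferative rafts 1, 3, 5 and 6 it was at 107, 28.1, 78.1 and 22.8 FPKM, and at 0 in the other 4. With saline it was at 0, 52.3 and 103.5 FPKM (lowest, median, highest) in proliferative rafts and at 0, 23.1 and 102.9 in nonproliferative rafts. No other member was at 0 throughout the 5 nM arm. DUS1L was at 43.5 and 158 FPKM in the 5 nM proliferative rafts 2 and 4, and with saline it was at 0, 108.5 and 340.2 FPKM in proliferative rafts and 0, 71.1 and 204 in nonproliferative rafts. The DUS1L levels of both 5 nM rafts lay within its range with saline.

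TMEM106C and C19orf48, the least described members, followed the same order. TMEM106C was at 69.2, 103.6 and 71.5 FPKM in the 5 nM proliferative rafts 1, 2 and 4 and at 6.16 FPKM in nonproliferative raft 7. With saline it was at 0, 280.6 and 407 FPKM in proliferative rafts and 0, 50.6 and 393 in nonproliferative rafts. C19orf48 was at 301 and 78.8 FPKM in the 5 nM proliferative rafts 2 and 4, and at 0, 239.6 and 298.4 FPKM in saline proliferative rafts. The C19orf48 level in 5 nM raft 2 was thus slightly above the highest proliferative saline raft, while raft 4 was below the 7 proliferative saline rafts that held the gene.

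Fitted differences of 5 nM minus saline, on the log2(FPKM + 1) scale and averaged over both classes, are given as description only. They were largest for C19orf48 at -5.46 (SE 1.17) and smallest for CDK2AP1 at -3.13 (SE 1.31). NDUFAB1, STUB1, DUS1L, BLVRA and PPA2 lay between -5.31 and -4.96, TMEM106C was at -4.66, SMYD3 at -4.39 and MGLL at -4.32. The median of the 10 was -4.97, and that of all tested genes -0.77. Of all tested genes 4.66% were lower with an adjusted p under 0.05 in limma and 0.0701% higher. Of the members 9 fell in the lower class and CDK2AP1 did not, which follows from the choice of the genes and says nothing about them. Under quantile normalization the calls over all genes were 103 lower and 20 higher, against 532 and 8. These differences depend on the 1 FPKM added before taking logs, because most 5 nM values are 0, and the scale understates changes of low genes. The median was -5.34 in proliferative and -4.42 in nonproliferative rafts, and the difference between classes was not tested.

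Other arm differences share libraries with that contrast and are set side by side without a test. The median of the members was 2.69 for saline minus untreated (all genes 1.10), -1.65 for 2 nM minus saline (all genes -0.52), -3.21 for 5 nM minus 2 nM (all genes -0.28) and -2.03 for 5 nM minus untreated (all genes 0.33). By these medians the saline arm was the highest of the 4 for the members and the 5 nM arm the lowest, as the choice of the genes favours.

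Members were also counted in the rafts most like bulk. The saline and 5 nM libraries chose the genes, so the contrast between those arms follows from the choice. Among rafts with rho of at least 0.25, members were detected in 99.1% of pairs with saline (11 rafts, 9 to 10 members each), 91.1% at 2 nM (9 rafts, 7 to 10), 71.7% untreated (6 rafts, 5 to 10) and 27.5% at 5 nM (8 rafts, 0 to 9). The shares of all tested genes in those rafts were 61.8%, 55.0%, 29.7% and 42.4%. The 8 rafts at 5 nM split into 2 with 9 members and 6 with 2 or fewer. No raft of the other arms with rho of at least 0.25 held fewer than 5.

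The 6 rafts at 5 nM with rho between 0.25 and 0.5 are described apart, a split chosen after the values were seen. They held 0, 0, 0, 0, 2 and 2 members, or 6.67% of pairs, while 31.2% of all tested genes were detected in them. The 8 rafts of the other arms in that range held 5 to 9 members, or 71.3% of pairs, while 23.5% of all tested genes were detected. The 5 nM libraries held 1759 to 7007 genes and the others 1495 to 5104. The members were chosen to be low in the 5 nM arm, so their lower count there follows from the choice. In 5 nM proliferative raft 1, with 7007 genes detected and rho 0.46, only NDUFAB1 and TMEM106C were above 0. STUB1, PPA2, BLVRA, C19orf48, SMYD3 and DUS1L were at 0 in all 6 rafts. In the 8 rafts of the other arms they were detected in 6, 6, 7, 4, 1 and 5, in that order. MGLL was at 151.9 FPKM in 1 of the 6 rafts at 5 nM and at 188.8 to 859 FPKM in all 8 of the others. Below a rho of 0.25 members were scarce in every arm, at 7.5% of pairs in 8 rafts at 5 nM and 7.27% in 22 rafts of the other arms. Untreated nonproliferative raft 8 was an exception at 8 members. All tested genes were scarce there too, at 16.8% at 5 nM and 10.4% in the other arms.

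**Figure D2:**
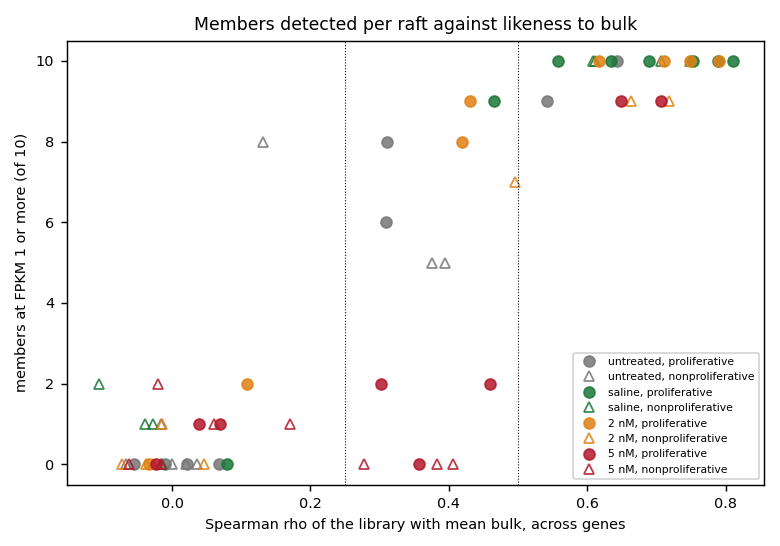
Number of the 10 genes at FPKM 1 or more in each of the 64 rafts, against the Spearman rho of the library with mean bulk across genes, by arm (colour) and class (filled circles proliferative, open triangles nonproliferative), with dotted lines at rho 0.25 and 0.5. Between the lines the 6 rafts at 5 nM hold 0 to 2 members and the 8 rafts of the other arms hold 5 to 9.

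The 2 rafts at 5 nM with rho of at least 0.5 held every member except SMYD3. In them NDUFAB1 was at 79.0 and 84.5 FPKM, against 165.6, 309.3 and 774.6 (lowest, median, highest) in the 18 rafts of the other arms with rho of at least 0.5. PPA2 was at 20.6 and 19.3 FPKM against 48.2, 94.0 and 147.2, and CDK2AP1 was at 33.9 and 67.6 FPKM against 76.8, 217.6 and 349.8. These 3 genes did not overlap between the 2 and the 18 rafts, and 0.561% of all tested genes were lower without overlap, a figure from which nothing is read because these 5 nM libraries took part in the choice. MGLL, BLVRA, C19orf48, STUB1, TMEM106C, SMYD3 and DUS1L overlapped. Their log2 differences, in that order, were -0.43, -0.82, -0.44, -1.37, -1.49, -5.04 and -0.15. The median difference of the members was -1.43, and that of all tested genes 0.32.

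Proliferative rafts held more of these genes than nonproliferative rafts, a comparison on which the choice of genes did not rest, although the saline and 5 nM libraries used for that choice enter it. Over the 4 arms the median proliferative raft held 8.5 members and the median nonproliferative raft 1 (32 rafts each). Members were detected in 57.8% of pairs in proliferative and 29.1% in nonproliferative rafts, and all tested genes in 38.4% and 25.8%. In the mean over the 4 arms all 10 genes were higher in proliferative rafts with an adjusted p under 0.05 (limma, Benjamini-Hochberg over all genes), where 11.5% of all tested genes were higher. Because libraries that chose the genes enter this contrast, these calls and the adjusted p of each gene below are read as description. None of the 10 was called in the untreated and 2 nM arms alone. The median difference was 3.01 on the log2(FPKM + 1) scale, against 0.58 for all tested genes. Quantile normalization moved the median of all genes to -0.02 and the calls from 1314 higher and 89 lower to 481 and 253, and under it the members had a median of 2.25, all above 0, with 4 called.

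By role, NDUFAB1 had median levels of 26.6, 309.3, 170.2 and 0 FPKM in proliferative rafts of the untreated, saline, 2 nM and 5 nM arms and 0, 135.6, 0 and 0 in nonproliferative rafts. Its limma difference was 3.57 (SE 0.92, adjusted p = 0.00784). PPA2, the other mitochondrial gene, had a limma difference of 2.31 (SE 0.78, adjusted p = 0.0372). STUB1 was at 2.81 (SE 0.89, adjusted p = 0.0283 in limma), and CDK2AP1 at 3.34 (SE 0.97, adjusted p = 0.0177). CDK2AP1 had proliferative medians of 124, 249, 152.8 and 0 FPKM and nonproliferative medians of 0, 38.4, 0 and 0 in the same order of arms. The proliferative median was the higher in each arm in which either was above 0, for NDUFAB1 and for CDK2AP1.

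TMEM106C had the largest class difference, 3.71 (SE 0.90, adjusted p = 0.00526 in limma), with proliferative medians of 0, 280.6, 241.5 and 0 FPKM and nonproliferative medians of 0, 50.6, 0 and 0. C19orf48 was at 3.46 (SE 0.86), MGLL at 3.21 (SE 0.92) and DUS1L at 2.81 (SE 0.82), with adjusted p of 0.00646, 0.0159 and 0.0178 in limma. BLVRA at 2.45 (SE 0.86) and SMYD3 at 1.82 (SE 0.64) were nearest the threshold, with adjusted p of 0.0438 and 0.0441 in limma. The number of genes detected and rho also moved with class: median rho was 0.445 in proliferative and 0.041 in nonproliferative rafts. Within the 34 rafts with rho of at least 0.25 the median difference of the members was 1.61 and 1 of 10 was called, all 10 staying above 0. With all 64 libraries 5 of 10 were called. With detected genes per library as a covariate 1 of 10 was called, and the part of library quality in the class difference was not tested. Without untreated proliferative raft 3 the count was 6.

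In the untreated and 2 nM arms alone, which took no part in the choice of genes, the class difference kept its direction but passed no threshold. All 10 genes lay above 0, from 2.27 for BLVRA to 4.91 for CDK2AP1, with a median of 3.43 against 0.63 for all tested genes. None of the 10 had an adjusted p under 0.05 in limma (range 0.0913 to 0.346), where 0.166% of all genes were higher at that threshold. At an unadjusted p under 0.05, 9 of 10 were higher, all except BLVRA, against 15.8% of all tested genes. Levels of the members were correlated across rafts, so these 9 are not independent. Within rafts of rho at least 0.25, 5 of 10 passed that threshold, and the lowest difference was 0.061. With detected genes per library as a covariate 8 passed, with adjusted p from 0.266 to 0.77 in limma. Median rho in these arms was 0.365 in proliferative and 0.028 in nonproliferative rafts, and its part was not tested. The count at the adjusted threshold was 6 without untreated proliferative raft 5, 4 without 2 nM nonproliferative raft 2, 4 without 2 nM nonproliferative raft 3 and 2 without 2 nM proliferative raft 7. By single arm the median difference of the members was 3.14 untreated, 3.09 with saline, 3.75 at 2 nM and 1.85 at 5 nM.

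**Figure D3:**
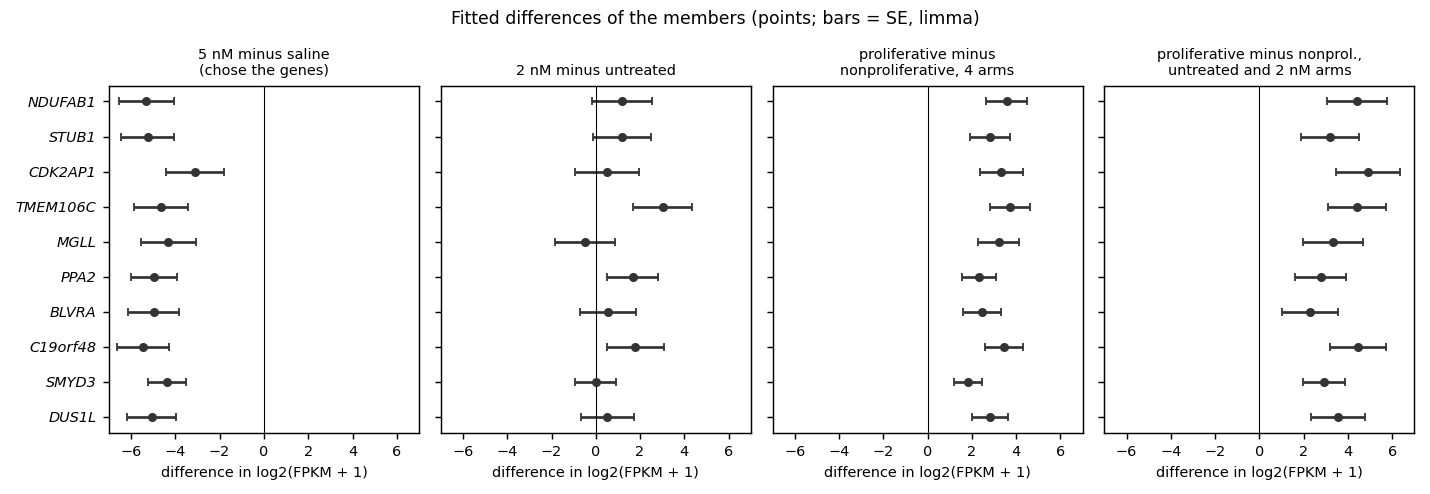
Fitted difference of each gene in log2(FPKM + 1), with SE as bars, for 5 nM minus saline (the contrast that chose the genes), 2 nM minus untreated, and proliferative minus nonproliferative over the 4 arms and over the untreated and 2 nM arms. All 10 genes lie above 0 in both class contrasts, while at 2 nM minus untreated 8 lie above 0 and 2 below (5 and 5 under quantile normalization, not drawn).

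At 2 nM the genes were not shown to differ from the untreated arm, the only dose comparison that shares no library with the one that chose them. None of the 10, and none of all 11416 genes, had an adjusted p under 0.05 in limma (0% higher and 0% lower). At an unadjusted p under 0.05, TMEM106C alone of the 10 passed, at 3.02 (SE 1.33, adjusted p = 0.582 in limma), against 8.34% of all genes. TMEM106C was above 0 in 10 of 16 rafts at 2 nM, with 66.4 to 828 FPKM, and in 5 of 16 untreated rafts. The other 9 ran from -0.48 for MGLL (SE 1.35) to 1.78 for C19orf48 (SE 1.28), and the SEs of the 10 genes of 0.94 to 1.43 leave room for changes in either direction for most of them. The median was 0.86, against 0.60 for all tested genes, and 8 members lay above 0 and 2 below, a split that became 5 and 5 under quantile normalization. The median was 0.18 without untreated proliferative raft 5 and 1.525 without untreated nonproliferative raft 4. Median library rho with bulk was 0.052 in the untreated arm and 0.424 at 2 nM, and its part was not tested. Within rafts of rho at least 0.25 the result changed, with 129 of 9976 genes called. Of the members TMEM106C alone was called there, at 4.80 (adjusted p = 0.0348 in limma).

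Bulk CFPAC-1 cells and rafts of 1 or 2 untreated cells all held most of these genes. Every member was detected in 4 of 4 bulk libraries, 7 to 10 members were found in rafts of 1 cell, 9 to 10 in rafts of 2 cells and 6 to 10 in C1 captures of 1 cell. In order of median bulk level, NDUFAB1 (454.5 FPKM), TMEM106C (368) and PPA2 (310.3) stood above CDK2AP1 (141.8) and BLVRA (122), followed by SMYD3 (65.2), C19orf48 (50.2), STUB1 (22.7), MGLL (19.6) and DUS1L (13.8). The bulk ranges of neighbours in that order overlapped except for NDUFAB1 and TMEM106C, PPA2 and CDK2AP1, BLVRA and SMYD3, and C19orf48 and STUB1. With no named cultures these groups were described without a test. The C1 captures were treated as a library set of their own, read from titles and index pairs, so device and library set cannot be told apart.

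Rafts and C1 captures placed some members apart. STUB1 was at 15.1 to 34.3 FPKM in bulk, at 72.3, 102 and 264.9 FPKM (lowest, median, highest) in 10 rafts of 1 cell and at 0 to 9.48 FPKM in 5 C1 captures of 1 cell. It was above the C1 range and above the bulk range in rafts of 1 cell, with log2 differences of 5.08 and 2.37. CDK2AP1 was at 36.9, 116 and 464.5 FPKM in those rafts and at 0 to 20.6 FPKM in the C1 captures, a log2 difference of 3.77. STUB1 and CDK2AP1 were the 2 members whose raft range lay wholly above the C1 range, where 1.7% of all genes compared did so and 8.07% lay wholly below. The median difference of the 10 was 1.30, and that of all genes -0.34.

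Against bulk, rafts of 1 cell were higher without overlap for STUB1, MGLL and C19orf48 (0.528% of all genes), and lower for none of the 10 (2.84% of all genes). MGLL was at 13.2 to 22.0 FPKM in bulk and at 34.9, 57.3 and 250.4 FPKM in the rafts, and C19orf48 was at 37.5 to 87.2 and at 96.3, 144 and 362 FPKM. The median of the 10 was -0.27 against -0.60 for all genes, with 5 members above 0 and 5 below. DUS1L was at 1.79 with overlapping ranges, and TMEM106C, PPA2 and BLVRA were at -1.78, -1.94 and -1.62 with overlapping ranges. C1 captures of 1 cell were lower than bulk without overlap for NDUFAB1, STUB1, CDK2AP1 and PPA2 (15.2% of all genes), and the median of the 10 was -2.05 against -0.29 for all genes. In captures of 2 cells, NDUFAB1, STUB1 and CDK2AP1 were lower than in rafts of 2 cells without overlap (4.86% of all genes, with 7.32% the other way). Between rafts of 2 and 1 cells no member was free of overlap (0.00896% of all genes higher in rafts of 2 cells).

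**Figure D4:**
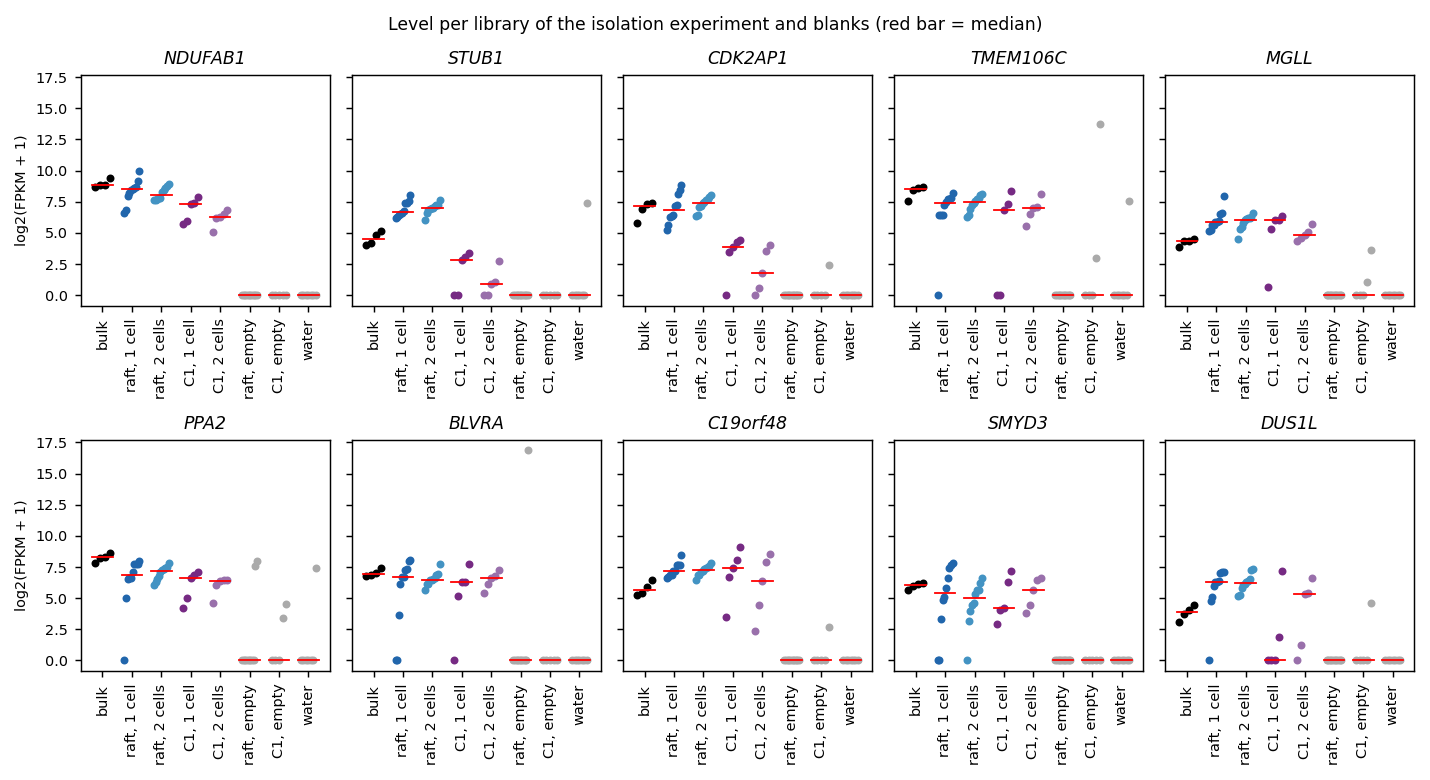
Level of each gene in bulk, raft and C1 libraries of untreated cells and in empty rafts, empty C1 captures and water, as log2(FPKM + 1), with each point a library and the red bar the median. STUB1 and CDK2AP1 lie lower in C1 captures than in rafts, and single blanks reach high values for BLVRA and TMEM106C.

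Blanks held few of the genes. Empty rafts had 0 to 1 members, water 0 to 3 and empty C1 captures 0 to 5, and NDUFAB1 and SMYD3 were at 0 in all blanks. Members were detected in 3.0% of pairs in empty rafts, 4.29% in water and 18.0% in empty C1 captures. The shares of all tested genes were near these, at 4.49%, 3.8% and 23.9%. Single blanks reached high values: BLVRA was at 119480 FPKM in an empty raft library with 41 genes detected, and TMEM106C at 13951 FPKM in an empty C1 capture. PPA2 was found in 2 of 10 empty rafts, at up to 253.8 FPKM.

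Levels of the members were correlated across the 52 fitted libraries, which include the saline and 5 nM rafts that chose them, so part of this is fixed by the choice. Spearman rho between pairs of members ran from 0.46 to 0.89 with a median of 0.66 over the 45 pairs, and from 0.09 to 0.76 with a median of 0.46 in the 34 rafts with rho of at least 0.25. Their mean level had a Spearman rho of 0.79 with the likeness of a library to bulk and 0.58 with the number of genes detected, with the rafts differing in both. The genes most like the members' mean were EIF4E, the cap-binding initiation factor (0.87), NSFL1C, a cofactor of the ATPase p97 (0.87), CNN2, a calponin (0.86), TSR3, an 18S rRNA modifying enzyme (0.85), and CCND3, cyclin D3 (0.85). The same measure had a median of 0.39 and a 95th percentile of 0.67 over all tested genes, which were not chosen on these libraries. CCND3 was detected in 2 fitted rafts at 5 nM and 11 with saline, and EIF4E in 5 and 12.

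Related genes of the same pathways were tested from a list of 90, of which 85 were in the table and 80 in the fit. In the 4-arm class contrast 19 of 80 were higher in proliferative rafts and none lower, where 11.5% of all tested genes were higher and 0.78% lower. They included UBE2D3, a ubiquitin-conjugating enzyme (4.52, adjusted p = 0.00287 in limma), BLVRB, biliverdin reductase B (4.19, adjusted p = 0.00445 in limma), NDUFS8 of complex I (4.14, adjusted p = 0.00526 in limma) and the HSP40 DNAJA1 (4.08, adjusted p = 0.00562 in limma). Complex I and acyl carrier genes gave 9 of 41, and chaperone partners of STUB1 4 of 14. In the untreated and 2 nM arms, and for 2 nM minus untreated, none of the 80 passed.

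For 5 nM minus saline 6 of the 80 related genes were lower and none higher, near the 4.66% of all tested genes that were lower, with a median of -1.52 against -4.97 for the members. Over all genes the calls of this contrast went from 540 to 9 with detected genes per library as a covariate. The 6 lower related genes of the main fit, without that covariate, included OXSM of mitochondrial fatty acid synthesis (-2.16, adjusted p = 0.0115 in limma). Also among these 6 were the CDK2 partner CCNE1 (-3.13, adjusted p = 0.0168 in limma), NDUFA7 of complex I (-3.51, adjusted p = 0.0274 in limma), and SMYD2 (-3.33, adjusted p = 0.0386 in limma). Among paralogs of the members, PPA1, the cytosolic pyrophosphatase, was detected in 8 of 16 rafts at 5 nM and 12 with saline, BLVRB in 7 and 11, and CDK2AP2 in 6 and 11. SMYD2 was detected in 3 and 10 and DUS2L in 1 and 8, while SMYD4 was detected in 10 and 7. The members were chosen to be low at 5 nM and these genes were not, so the 2 sets of counts are not comparable.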

How the data were processed

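The authors deposited 1 table of FPKM values for the 120 libraries, made with RSEM against hg19 per the submitters' processing notes; the RSEM version and any filter are not given in the sources used here. Counts were not used here, and no 2 columns held identical values. Groups and doses came from the labels. The 10 genes and the list of 90 related genes were chosen with earlier results of these data known.

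Where a name stood on several rows, the row with the highest mean was kept. After log2(FPKM + 1), the 8 raft groups entered 1 limma-trend fit (limma 3.58.1, R 4.3.3), with two-sided tests adjusted over all genes after Benjamini and Hochberg at a threshold of 0.05. The fit held the 52 of 64 libraries with at least 1000 genes at FPKM 1 or more, and the 11416 genes at that level in at least 8 of them. For the 10 genes the contrast of 5 nM with saline, and for all genes the comparisons of bulk, raft, C1 and blank libraries, were described without a test. Isolation comparisons used genes detected in at least 4 libraries. All 10 genes are named, with up to 4 called related genes per contrast by smallest p and the 5 genes most alike in Spearman rho; paralogs given by detection counts were picked after their values were seen. The fit was also run on simulated normal values, independent between genes. The data here hold many 0s and correlated genes, so that run does not bear on the calls. Alternatives changed the pseudocount (0.1, 5), the filters, the libraries and the scaling, and left out each library in turn. Other steps used Python 3.11.15 with scipy 1.17.1, numpy 2.4.6, pandas 2.3.3 and matplotlib 3.10.9.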

Additional observations from a re-analysis of the deposited data

Results flagged for a closer look

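A library was marked where its log2(FPKM + 1) stood far from the others of its group, its gap to the nearest value being a large part of the group's range. This happened in 35 of 160 gene and group pairs (21.9%). The 160 include pairs with every library at 0, in which no library can be marked. Chance marks about 1 in 20 groups of normally distributed values, a rate that is therefore not comparable with the 21.9%. Many groups here mix values of 0 with high values.

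Saline proliferative raft 5, a library with 735 genes that is not in the fit, was at 0 FPKM for NDUFAB1, STUB1, CDK2AP1, TMEM106C, MGLL, PPA2, BLVRA, C19orf48 and DUS1L, where the other 7 rafts of its group held them. In 2 nM proliferative raft 8 NDUFAB1 and TMEM106C were at 0 FPKM. Untreated nonproliferative raft 4 stood high for NDUFAB1 (372.6 FPKM), STUB1 (624.1 FPKM), PPA2 (31.4 FPKM) and BLVRA (458.3 FPKM), and untreated nonproliferative raft 8 for C19orf48 (7.37 FPKM) and SMYD3 (1.93 FPKM). TMEM106C was at 6.16 FPKM in 5 nM nonproliferative raft 7 and at 0 in the other 7.

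Among blanks, BLVRA was at 119480 FPKM in empty raft 7 and TMEM106C at 13951 FPKM in empty C1 capture 4. The water library 5 held STUB1 at 166 FPKM, TMEM106C at 183 FPKM and PPA2 at 168 FPKM, with 2097 genes detected. Empty C1 capture 1 held CDK2AP1 at 4.22 FPKM and DUS1L at 23.5 FPKM, and empty C1 capture 2 held C19orf48 at 5.48 FPKM.

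In untreated single cells and pairs, TMEM106C was at 0 FPKM in 1-cell raft 7, PPA2 and DUS1L were at 0 FPKM in 1-cell raft 9, and SMYD3 was at 0 FPKM in 2-cell raft 8. MGLL stood high in 1-cell raft 3 (250.4 FPKM). In C1 captures CDK2AP1 was at 0 FPKM and MGLL at 0.62 FPKM in 1-cell capture 2, DUS1L was at 145 FPKM in 1-cell capture 4, and PPA2 was at 24.0 FPKM in 2-cell capture 1.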

How the results depend on the processing

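No paired analysis was possible because the labels give each raft a running number of its own, and no number is shared between groups. Over 8 alternatives, all 10 genes stayed below 0 for 5 nM minus saline and above 0 in both class contrasts, and the median of the members stayed within -7.17 to -3.45 for 5 nM minus saline. The number of genes called higher in proliferative rafts over the 4 arms was 10 in the main setting, 7 with no filter on low values, 5 with all 64 libraries, 4 with quantile normalization, 1 with detected genes per library as covariate and 1 with libraries of rho at least 0.25. Leaving out 1 library at a time gave 6 to 10. In the untreated and 2 nM arms it was 0 in the main setting and 0 to 6 with 1 library left out. For 2 nM minus untreated the count was 0, and 1 with libraries of rho at least 0.25, where TMEM106C was at 4.80 (adjusted p = 0.0348 in limma). Over all genes, the 1403 calls of the 4-arm class contrast became 774 with no filter, 659 with all 64 libraries, 93 with rho at least 0.25, 734 with quantile normalization and 226 with the covariate, and the 540 calls of 5 nM minus saline became 879 and 287 with pseudocounts of 0.1 and 5, 253 with no filter, 337 with all 64 libraries, 123 with quantile normalization and 9 with the covariate. In the untreated and 2 nM arms the 19 calls over all genes became 11 with a pseudocount of 0.1 or no filter, 12 with libraries rescaled to the same total, 42 with rho at least 0.25 and 0 with all 64 libraries, quantile normalization or the covariate, and the 0 calls of 2 nM minus untreated became 129 with rho at least 0.25. The causes were not tested.

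Signs turned only for 2 nM minus untreated, where no gene was called in the main setting. CDK2AP1 was at -0.46 with quantile normalization and -0.25 with the covariate, BLVRA at -0.11 and -0.29, and DUS1L at -1.10 and -0.019. MGLL was at 0.89 with all 64 libraries. SMYD3 was at 0.40 with all 64 libraries, 0.035 with a pseudocount of 5 and 0.053 with libraries of rho at least 0.25. With 1 library left out CDK2AP1 ran from -0.41 to 1.07, MGLL from -1.32 to 0.12, BLVRA from -0.026 to 1.34, SMYD3 from -0.37 to 0.62 and DUS1L from -0.064 to 1.19. In the 4-arm class contrast the call was lost in 29 of 52 leave-outs for SMYD3, 25 for BLVRA, 15 for PPA2 and 3 for STUB1. Depth is unknown, so a 0 cannot be read as absence.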
